A study of Mus musculus with 9 samples.

Results

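The inner mitochondrial membrane holds the respiratory chain, in which electrons from NADH and succinate pass through complexes I to IV to oxygen, and ATP synthase, counted as complex V, uses the proton gradient that results. A small set of subunits is encoded by the mitochondrial chromosome and all others by nuclear genes. In cortex, oxidative phosphorylation supplies most of the ATP that synapses and ion pumps use. The nuclear subunit genes were described here in the piriform cortex, the 3-layered cortex that receives input from the olfactory bulb.

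Members were the protein-coding genes whose symbols begin with Nduf (without the Ndufaf assembly factors), Uqcr, Cox4 to Cox8 and Atp5, together with Sdha, Sdhb, Sdhc, Sdhd, Cyc1 and Cycs, each represented by its transcript with the highest mean count over the 9 samples. This gave 87 of 33947 genes, of which 36 belong to complex I, 4 to complex II, 9 to complex III, 1 is cytochrome c, 20 belong to complex IV and 17 to complex V. Ndufa4 and its paralog Ndufa4l2 were placed in complex IV, where the Ndufa4 protein is found. The 9 samples were tissue of wild-type C57BL/6 mice aged 8 weeks by the labels (the methods of the study give another age), taken from frozen brain sections by laser capture and amplified before sequencing. Layers A, B and C had 3 replicates each, numbered 1 to 3, the labels give no treatment, and neither the labels nor the methods say which letter is which numbered layer. Because nothing says whether replicates were separate animals, p-values measure the spread between these samples, which may be technical. Each sample is a piece of tissue with several cell types, so that fewer cells of a type and less RNA per cell cannot be told apart.

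Deposited totals ran from 23104306 to 76471683 counts per sample, and the mitochondrial chromosome took 13.1% to 72.6% of them. Its counts were left out, and with 1 transcript per gene the library sizes were 2786854 to 23678399 counts, lowest in layer A replicate 1 and highest in layer C replicate 3. Levels are given as CPM, the count scaled to a common library size, with TMM factors of 0.926 to 1.13. A limit of 3 counts, taken as the floor of detection, corresponded to 0.118 to 1.16 normalized CPM and covers counting error only. Of the 87 members, 78 reached 10 counts in 3 or more samples and were tested among 15158 genes. The other 9 were Atp5g2, Atp5l, Cox4i2, Cox6b2, Cox7b2, Cox8b, Cox8c, Ndufa4l2 and Ndufs5. In the sentences that follow, layers are also written A, B and C, and 3 values for a layer are those of replicates 1, 2 and 3 in that order.

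Layer B replicate 3 stood apart from the other layer B samples. The median of its 78 tested members was 79.5 normalized CPM, against 28.2 and 27.1 in replicates 1 and 2 of that layer. The same medians were 25.2, 25.9 and 46.1 in A and 31.8, 24.6 and 52.3 in C. By this median replicate 3 was the highest sample in every layer, and layer B replicate 3 was the highest of all 9. The medians of the comparisons with layer B changed sign without it. Log2 fold changes of tested members against layer B are therefore given below with all 9 samples and again without layer B replicate 3. For untested members, mitochondrial messenger RNAs and the other gene lists, log2 fold changes without that sample are not given.

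Per transcript length, the members spanned a wide range of levels. Atp5b, the catalytic beta subunit of ATP synthase, was the highest at 834 normalized CPM per kb, averaged over the 9 samples. Cox4i1, the common isoform of the cytochrome c oxidase subunit 4, followed at 352, ahead of Cox8a at 294 and Cox6a1 at 292. Complex I was led by Ndufb9, an accessory subunit of its membrane arm, at 219.6 CPM per kb, complex II by its flavoprotein Sdha at 155 and complex III by the hinge protein gene Uqcrh at 96.1. The median over tested members was 35.2 CPM per kb in complex I, 61 in complex II, 66.7 in complex III, 54.1 in complex IV and 33.3 in complex V. Within each complex of several members the range was wider than the differences between these medians, and it ran from 1.57 to 352 in complex IV.

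**Figure D1:**
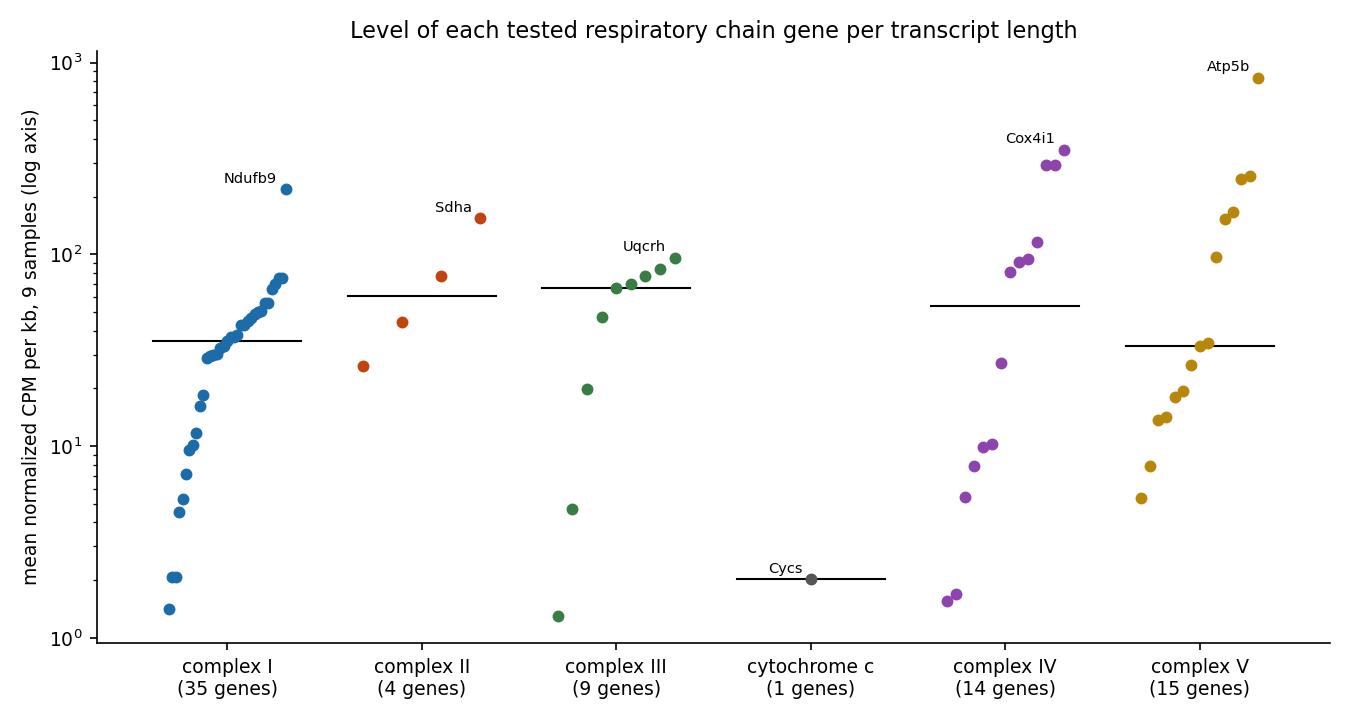
Each point is 1 of the 78 tested genes, placed by complex on the horizontal axis, with its mean normalized CPM per kb over the 9 samples on a logarithmic vertical axis and a black line at the median of the complex. Atp5b at 834 lies above all other points, and Cycs at 2.03 is among the lowest.

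Some members, several of them constitutive subunits, had low values. Cox5b, a structural subunit of complex IV, had 1.7 normalized CPM per kb, Ndufs3 of the complex I core 1.41 and Uqcrb of complex III 1.3, while Atp5g2, Ndufs5 and Atp5l lay at 0.697, 0.521 and 0.449. Nearly identical stretches in other genes (at least 95% identity over at least 50 bases) covered at least 50% of the chosen transcript in 10 members. Those 10 had a median of 5.76 CPM per kb and a range of 0.449 to 34.3, against 36.9 and 0 to 834 for the other 77. Atp5f1, covered over 64.6% of its transcript, stood at 26.6 CPM per kb. All of the Atp5g2 transcript, 86.8% of Atp5l, 84.1% of Ndufs3, 68.6% of Uqcrb and 53.3% of Ndufs5 had such a copy elsewhere, whereas Cox5b had none. How reads shared between copies were counted is not given in the sources used here, so the levels and layer differences of these members are uncertain. Isoforms could not be told apart either, since 32 of the 53 members with several transcripts had a second one with at least 90% of the count of the first, and 12 of the 87 chosen transcripts were of a non-coding type (7 retained introns, 3 processed transcripts and 2 subject to nonsense-mediated decay). Ndufs3, Ndufs5 and Atp5l, like Ndufab1, Ndufs7, Sdhc, Ndufb4, Atp5d, Atp5j and Atp5mpl below, were chosen for mention after their values were seen.

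Nuclear respiratory factor 1 (NRF1), a transcription factor first known from the cytochrome c promoter, binds a palindromic GC-rich site and is a common regulator of these genes. In RefSeq promoters of build GRCm38.p6, which were found for 68 of the 87 members, the 250 bases before the start site held GCGCATGC on either strand in 9 members (13.2%) and in 2.26% of 32851 promoters. The motif CCGGAAG of ETS factors such as Gabpa was found in 11 members (16.2%), against 6.91% of all promoters. GGGCGG of SP factors was in 33.8% of the members and 32.7% of all, TATAAA in 8.82% and 12.4%, and AAGATGGC of YY1 in 0 members and 1.56% of all. Bases after the start site were not searched for any motif, so a site there would be missed. A match is a description of letters and not a bound site. The stretches below show 1 match for each complex that had any, read 5′ to 3′ on the strand of the gene, with the motif or its reverse complement GCATGCGC in capitals and the flanking bases in lower case. They lie in Ndufa6, an accessory subunit of complex I, Sdhb, the iron-sulfur subunit of complex II, Cycs, Cox6a1 of complex IV and Atp5k, the small e subunit of ATP synthase, and Ndufa6 and Atp5k are named only for this match. Their positions are Ndufa6 at chr15:82354357-82354384 (minus strand), Sdhb at chr4:140961207-140961234 (plus strand), Cycs at chr6:50566612-50566639 (minus strand), Cox6a1 at chr5:115349103-115349130 (minus strand) and Atp5k at chr5:108434432-108434459 (minus strand).
Ndufa6: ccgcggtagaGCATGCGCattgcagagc
Sdhb: agcccagtggGCATGCGCcctacgggcc
Cycs: atgctagctcGCATGCGCgcgcacaaac
Cox6a1: caggaacgggGCGCATGCgcgctctcgc
Atp5k: tttcactgcgGCGCATGCgcctttctgg
In Cox6a1 and Atp5k the motif and its reverse complement overlap, so that 2 matches were counted there. Complex III had 5 promoters in the table and 0 matches to GCGCATGC.

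Layers A and B were compared to ask whether respiratory chain genes differ between layers. No member passed the threshold, 0 of 78 against 23.9% of the 15158 genes tested (edgeR's quasi-likelihood test, Benjamini-Hochberg adjusted p under 0.05). DESeq2's Wald test also called 0 members, against 28% of all genes in that fit. At an unadjusted p under 0.05 the count was again 0 of 78, against 35% of all genes. The fitted log2 fold changes, layer A over layer B, had a median of -0.33 over the members and -0.09 over all genes, with 18 members above 0 and 60 below. They ran from -1.52 to 0.85, and 4 members (5.13%) lay beyond 1 in size, against 34.2% of all genes. Only 11 members had a 95% interval that stayed inside a 2-fold difference, and 69 stayed inside a 4-fold one, and the intervals of the members outside the first group reached a 2-fold difference or more. Without layer B replicate 3 the median became 0.43, with 63 members above 0 and 13 below, and 2 of 76 passed, Ndufb9 and Cox6c, both higher in layer A, against 25.2% of all genes.

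By complex, the median log2 fold change of layer A over layer B was -0.35 for complex I, -0.03 for complex II, -0.15 for complex III, -0.16 for complex IV and -0.60 for complex V. Below 0 lay 30 of 35 tested members of complex I, 3 of 4 of complex II, 7 of 9 of complex III, 8 of 14 of complex IV and 12 of 15 of complex V. Cycs, alone in its group, was at 0.40. Without layer B replicate 3 the medians were 0.44, 0.36, 0.25, 0.68 and 0.39 for complexes I to V, with 6 of 35, 0 of 4, 2 of 8, 2 of 13 and 3 of 15 members below 0, so that the direction in all 5 complexes rested on that sample. Within every complex the spread between replicates was wide, with a median within-layer standard deviation, on the log2 scale, of 0.425 in complex II and 0.841 in complex V at the extremes. Of all tested members, 80.8% varied more within layers than the median gene, whose standard deviation was 0.50.

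**Figure D2:**
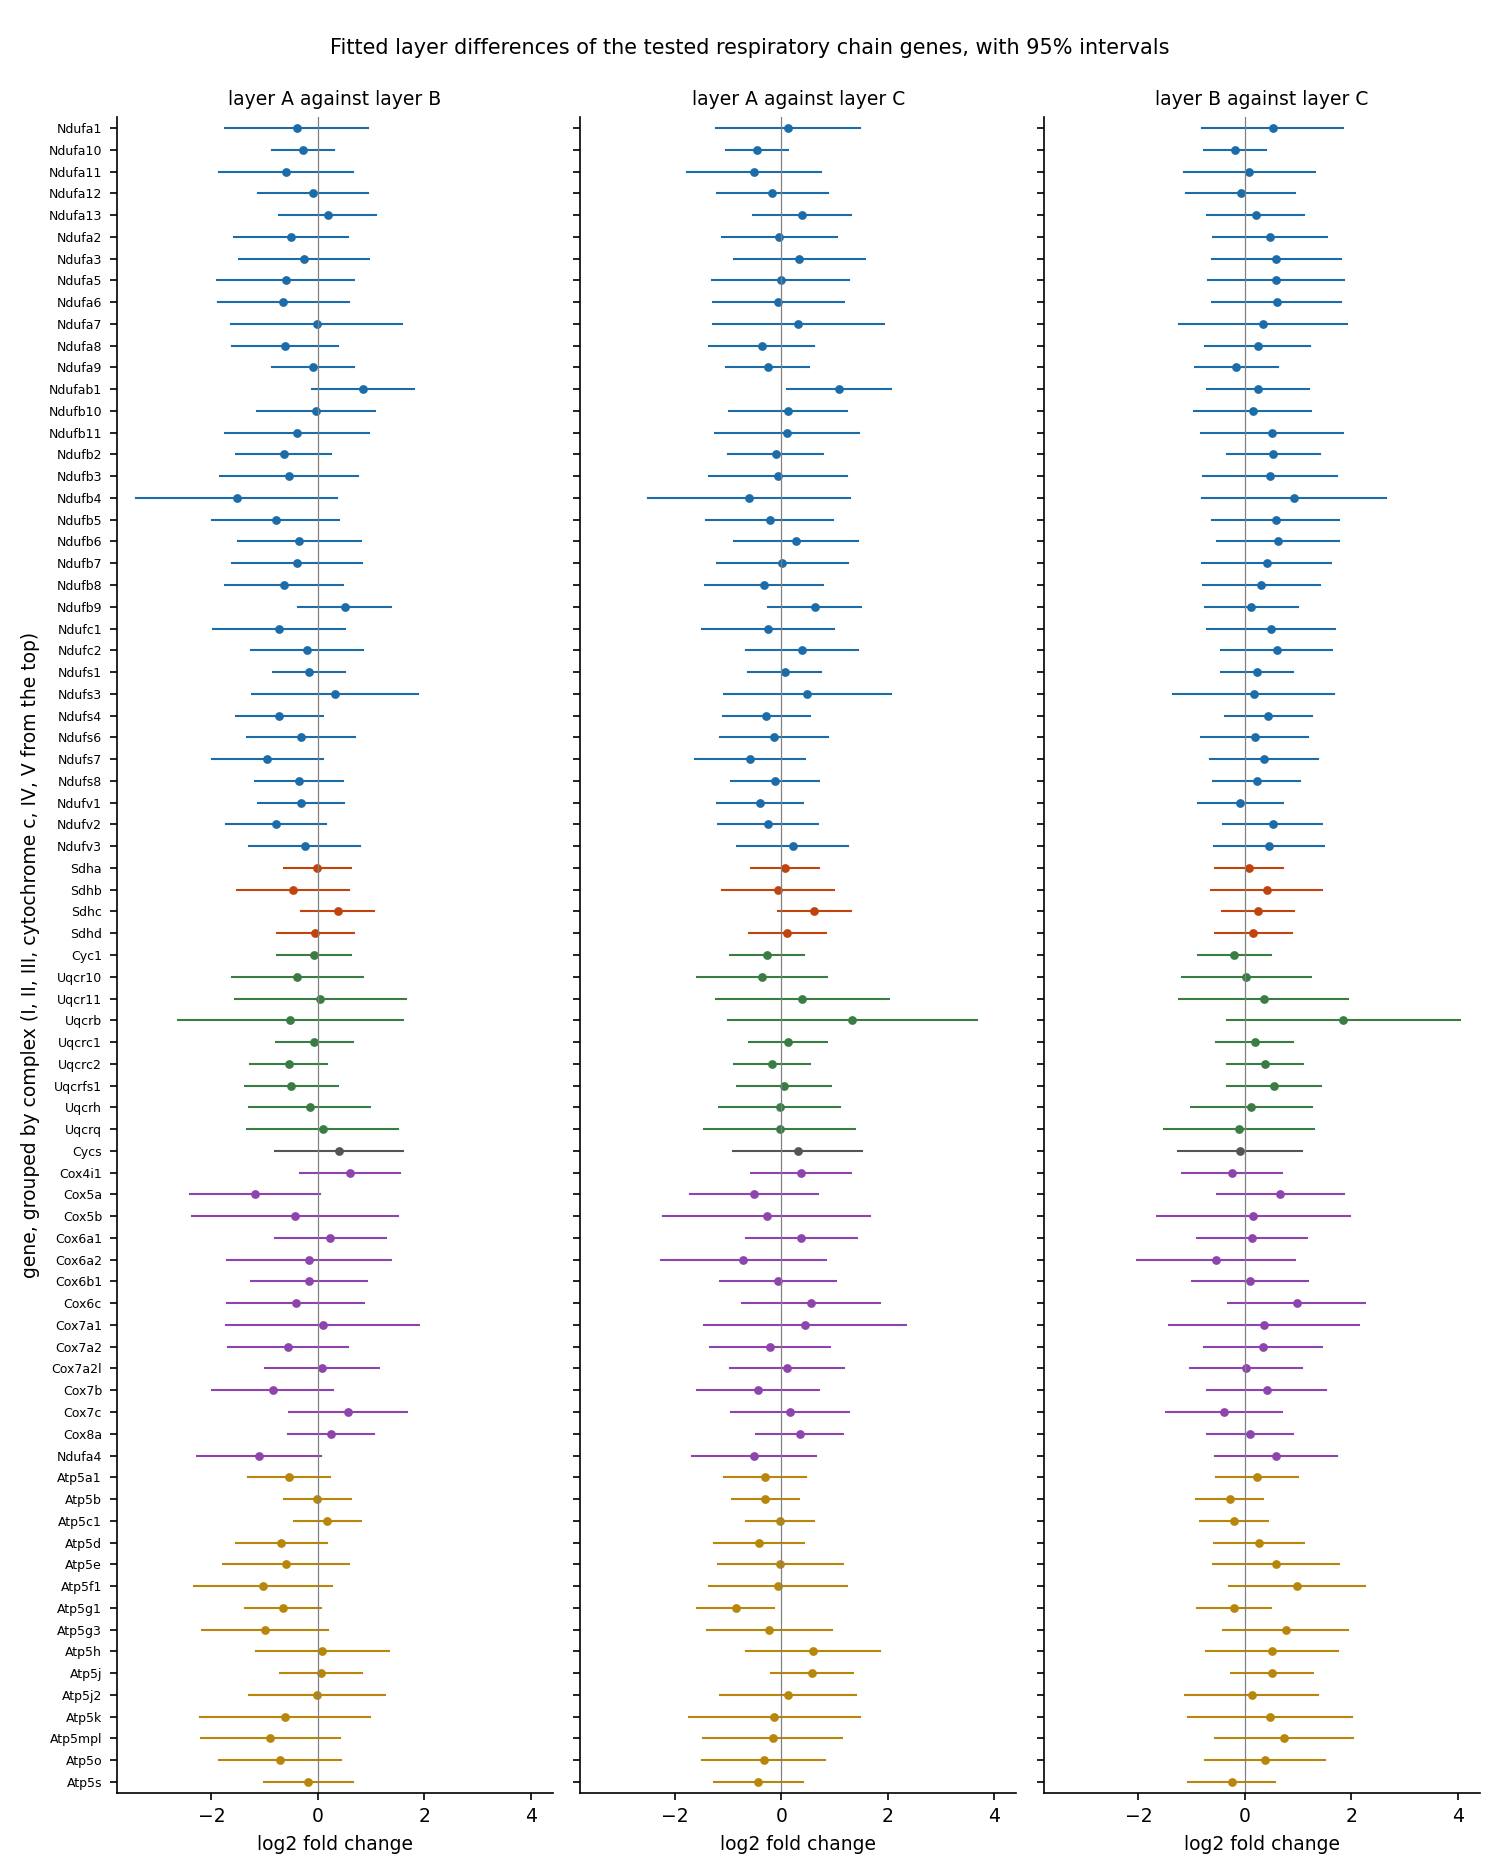
Fitted log2 fold changes of 77 of the 78 tested genes (points) with 95% intervals (lines), 1 panel for each pair of layers, genes coloured and ordered by complex. For layer A against layer B all intervals cross 0, and for layer A against layer C those of Ndufab1 and Atp5g1 do not.

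Layers A and C gave the same count, 0 of 78 members against 18.4% of all genes, by the same edgeR test. DESeq2's Wald test called 1, Atp5g1, at an adjusted p of 0.0389, against 22.9% of all genes in that fit. At an unadjusted p under 0.05 there were 2 members, against 30.3% of all genes, Ndufab1 higher and Atp5g1 lower in layer A. The median log2 fold change, layer A over layer C, was -0.06 over the members and 0.03 over all genes, with 32 above 0 and 46 below. Complex V had the lowest median, -0.16, and Cycs stood at 0.30. Leaving out layer B replicate 3 left this median at -0.06.

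Between layers B and C, 0 of 78 members passed, against 0.0264% of all genes, and DESeq2's Wald test called 0, against 0.594%. No member had an unadjusted p under 0.05, against 5.75% of all genes. The median log2 fold change, layer B over layer C, was 0.29, with 63 members above 0 and 15 below, against 0.06 over all genes. Without layer B replicate 3 it was -0.48, with 5 above 0 and 71 below. The 3 members with the smallest p-values were Uqcrb (log2 fold change 1.85, 95% interval -0.34 to 4.04, adjusted p = 0.996 in edgeR), Cox6c (0.97) and Atp5f1 (0.97), all with fitted values above 0. Without layer B replicate 3 those of Cox6c and Atp5f1 were -0.66 and -0.65, and Uqcrb no longer reached the count minimum.

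**Figure D3:**
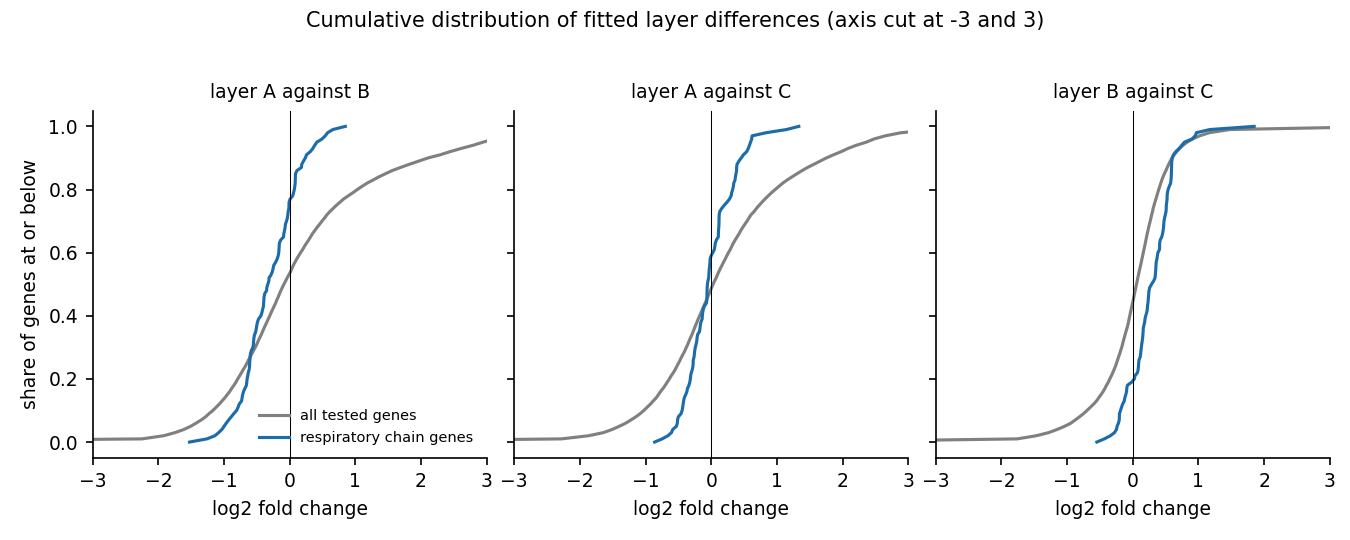
Cumulative share of genes (vertical axis) at or below each log2 fold change (horizontal axis, shown from -3 to 3) for all 15158 tested genes in grey and the 78 respiratory chain genes in blue, 1 panel for each pair of layers. The blue curves are steeper than the grey ones for layer A against B and A against C, and in the first panel the blue median is -0.33.

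The members varied together between samples of the same layer. Replicate 3 was the highest sample of its layer for 59 of 78 members in A, 74 in B and 67 in C, against 38.3%, 43.5% and 38.1% of all tested genes. In all 3 layers at once this held for 54 members (69.2%), against 12.2% of all genes. The median log2 difference between replicate 3 and the mean of replicates 1 and 2 was 0.77, 1.51 and 0.79 in layers A, B and C, against 0.11, 0.0045 and 0.07 over all genes. In layer B that is a median 2.85-fold higher level, reaching 3.77-fold in complex V and 3.12-fold in complex I, and 1.87-fold in complex II. Replicate 3 also had the largest deposited total of each layer, 43705625 counts in A, 44224318 in B and 76471683 in C. The part of sequencing depth in the replicate 3 difference was not tested.

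Members have short transcripts, with 41 of the 78 tested below 1000 bases, where the median gene measured 2981 bases. After trends with transcript length and GC content had been removed within each sample, the replicate 3 difference was 0.37, 1.33 and 0.56 in layers A, B and C, against 0.16, 0.04 and 0.11 over all genes. Within samples of the same number, the median of layer A over layer B was 0.12 at number 1, 0.16 at number 2 and -0.72 at number 3. The median of layer A over layer C was -0.26, 0.21 and -0.15, and that of layer B over layer C was -0.30, 0.07 and 0.59. The sign of the median therefore depended on the number for each pair of layers. Whether the numbers mark a shared animal, slide or sequencing lane is not stated, and the part of such a factor was not tested. Without all 3 samples of number 3, an alternative chosen after seeing the data, Ndufb9, Cox4i1 and Sdhc passed as higher and Atp5d as lower in A than B, 4 of 75 against 30.5% of all genes.

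**Figure D4:**
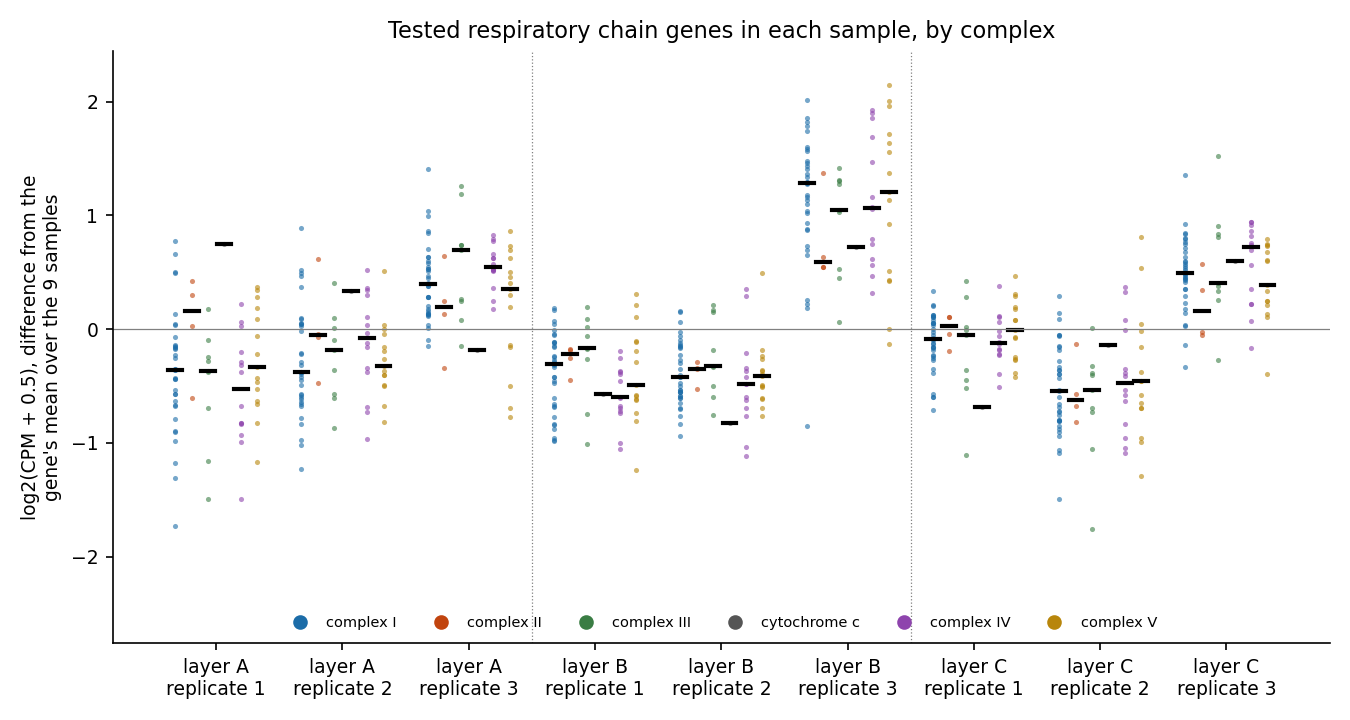
Each point is a tested gene in 1 sample (horizontal axis, 3 replicates of layers A, B and C), as log2(CPM + 0.5) minus the gene's mean over the 9 samples, with a black line at the median of each complex. Medians of complexes I to V are above 0 in replicate 3 of every layer and reach their highest values in layer B replicate 3.

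In complex I, which takes electrons from NADH, Ndufb9 (ENSMUST00000022980, chr15:58933756-58939488) had normalized CPM of 224, 146 and 221 in A, 76.8, 79 and 262 in B and 142, 97 and 144 in C. All layer A values exceeded all layer C values, and they exceeded layer B except for its replicate 3, the highest of the 9. The log2 fold change was 0.50 against layer B (95% interval -0.38 to 1.38, adjusted p = 0.422 in edgeR), and 1.34 (adjusted p = 0.00432) without that sample. Ndufab1 (ENSMUST00000033157, chr7:122085403-122101886), the mitochondrial acyl carrier protein that is also a complex I subunit, had normalized CPM of 9.69, 12.9 and 9.75 in A, 6.92, 7.55 and 3.5 in B and 5.95, 3.76 and 5.22 in C. Its lowest layer A sample exceeded every sample of layers B and C, and layer B replicate 3 was the lowest of the 9, unlike for most members. Its level, 57.1 counts on average, gave a log2 fold change of 1.09 against layer C (95% interval 0.11 to 2.07, adjusted p = 0.118 in edgeR) and 0.85 against layer B (adjusted p = 0.202), where it was 0.57 without layer B replicate 3.

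Ndufs1 and Ndufv1, core subunits of complex I that carry its electron path, overlapped between layers. Ndufs1, which holds iron-sulfur clusters, had normalized CPM of 79.8, 99.9 and 102 in A, 83.8, 76 and 155 in B and 82.6, 73 and 115 in C. Ndufv1, which binds NADH and flavin, had normalized CPM of 27.1, 52.1 and 56.4 in A, 58.3, 50.3 and 61.1 in B and 55.8, 32.1 and 91.8 in C. Layer B replicate 3 was the highest sample of Ndufs1 and layer C replicate 3 that of Ndufv1, and no layer stood apart. Their log2 fold changes of layer A over layer B were -0.16 and -0.32, with intervals of -0.84 to 0.52 and -1.12 to 0.49, and without layer B replicate 3 they were 0.24 and -0.25. Ndufs7, which holds the last iron-sulfur cluster before quinone, had normalized CPM of 12.4, 15.9 and 37.4 in A, 32.3, 26 and 71 in B and 31.3, 18.8 and 50 in C, with layer A replicates 1 and 2 the lowest of the 9 (log2 fold change -0.95, 95% interval -1.99 to 0.09, adjusted p = 0.182 in edgeR, against layer B, and -0.37 without layer B replicate 3). Ndufb4, an accessory subunit, had the most negative value of all members at -1.52, from counts of 2, 2 and 15 in A, 10, 10 and 99 in B and 14, 2 and 72 in C, with a 95% interval of -3.41 to 0.36. Most of its layer B counts came from replicate 3, and without that sample the value was 0.03 (adjusted p = 0.986 in edgeR).

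In complex II, succinate dehydrogenase, the layers also overlapped in most genes. Sdha (ENSMUST00000022062, chr13:74322254-74350280), the flavoprotein, had normalized CPM of 591, 428 and 348 in A, 388, 344 and 642 in B and 472, 401 and 431 in C, with a log2 fold change of -0.01 against layer B (95% interval -0.65 to 0.63, and 0.32 without layer B replicate 3) and 0.07 against layer C. Sdhb, its iron-sulfur partner, had normalized CPM of 29.5, 32.5 and 71 in A, 33.1, 35.5 and 118 in B and 43.9, 28.1 and 67.6 in C, and replicate 3 was the highest of each layer. Sdhc, a membrane anchor, had normalized CPM of 98.8, 123 and 87.9 in A, 67, 55.3 and 117 in B and 70.1, 53.8 and 77.2 in C, so that all layer A samples exceeded all layer C samples (log2 fold change 0.62, adjusted p = 0.211 in edgeR). In layer A, replicate 3 was the lowest sample for both Sdha and Sdhc, unlike for most members.

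In complex III, Cyc1, which encodes cytochrome c1, had normalized CPM of 129, 74.8 and 121 in A, 94.7, 90.9 and 155 in B and 153, 90.6 and 148 in C. Uqcrfs1, the Rieske iron-sulfur protein, had normalized CPM of 68.2, 82.3 and 104 in A, 84.5, 57.9 and 218 in B and 68.4, 67.2 and 111 in C. Both overlapped between all layers, at log2 fold changes of -0.07 and -0.50 for layer A over layer B. The core proteins Uqcrc1 and Uqcrc2 were at -0.07 (95% interval -0.80 to 0.66) and -0.55 (-1.27 to 0.17). Without layer B replicate 3 the values were 0.23 for Cyc1, 0.27 for Uqcrfs1, -0.09 for Uqcrc1 and -0.03 for Uqcrc2. Uqcrh had normalized CPM of 45.3, 32.5 and 81.4 in A, 28.7, 28.5 and 121 in B and 48, 29.8 and 85.4 in C, with replicate 3 highest in each layer. Uqcrb was sparse, with counts of 1, 1 and 11 in A, 4, 6 and 27 in B and 0, 2 and 10 in C.

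Cytochrome c, the soluble carrier between complexes III and IV, was represented by the somatic gene Cycs, at normalized CPM of 10.1, 7.45 and 5.05 in A, 3.74, 3.07 and 9.88 in B and 3.43, 5.21 and 9.07 in C. Layer A exceeded layer B except for layer B replicate 3, and the log2 fold change was 0.40 (95% interval -0.80 to 1.60, adjusted p = 0.664 in edgeR) with all samples and 1.12 without that one. Near-identical stretches elsewhere covered 35.0% of its transcript, in 90 other genes.

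Complex IV, cytochrome c oxidase, has tissue-specific isoforms for several subunits. Cox4i1 (ENSMUST00000034276, chr8:120668222-120674207) had normalized CPM of 247, 303 and 418 in A, 144, 146 and 349 in B and 209.5, 111 and 430.3 in C, with means of 323 ± 87.5 (SD, n = 3) for A, 213 ± 118 (SD, n = 3) for B and 250.2 ± 164 (SD, n = 3) for C (log2 fold change 0.60, 95% interval -0.34 to 1.54, adjusted p = 0.365 in edgeR, against layer B, and 1.16 without layer B replicate 3). Cox5a, a structural subunit, had normalized CPM of 26.4, 24 and 60.9 in A, 41.4, 36.6 and 178 in B and 35.8, 35.3 and 89.4 in C. Its layer B mean rested on replicate 3, while replicates 1 and 2 of layer B lay between the layer A samples. It had the smallest adjusted p of all members in layer A against layer B, 0.154, at a log2 fold change of -1.18 (95% interval -2.40 to 0.03), and without layer B replicate 3 the value was -0.04 (adjusted p = 0.964 in edgeR). Ndufa4 had its highest value in the same sample, with normalized CPM of 25.2, 27.8 and 53.6 in A, 34.6, 32.1 and 164 in B and 41.2, 35.3 and 76.4 in C (log2 fold change -1.10, 95% interval -2.27 to 0.07, adjusted p = 0.168 in edgeR, layer A against B, and 0.12 without layer B replicate 3).

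Cox6c, a small subunit of complex IV without a second isoform, had normalized CPM of 24.8, 22.3 and 41.8 in A, 14.4, 11.6 and 93.6 in B and 16.9, 18.5 and 25.5 in C. Layer B replicate 3 was the highest and layer B replicates 1 and 2 the lowest of the 9, so that its log2 fold change of layer A over layer B was -0.42 (adjusted p = 0.67 in edgeR) with that sample and 1.21 (adjusted p = 0.0319) without it. The chosen transcript of Cox6c is annotated as a retained intron, and its second transcript had 96.9% of the count.

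Per transcript length, the widely expressed form was the higher one of each isoform group, as in Cox6a1 at 292 CPM per kb against 5.46 for Cox6a2. Cox6a1 had normalized CPM of 128, 188 and 256 in A, 91.5, 87.1 and 309 in B and 130.1, 71.2 and 240.5 in C, and Cox6a2, known from muscle and from parvalbumin interneurons, had normalized CPM of 1.55, 2.37 and 4.7 in A, 1.25, 1.18 and 7.62 in B and 4.23, 4.05 and 6.48 in C. Cox6a2 overlapped between layers, at log2 fold changes of -0.17 against layer B and -0.71 against layer C for layer A, and at 1.33 against layer B without its replicate 3. Cox6b1 had normalized CPM of 25.6, 63.7 and 76.8 in A, 39.1, 38.3 and 109 in B and 47.5, 26.3 and 99.5 in C. Cox6b2, known from testis, did not reach the count minimum, with counts of 1, 6 and 47 in A, 2, 1 and 4 in B and 1, 0 and 18 in C. Most of its layer A counts came from replicate 3. Fitted without a filter on low counts, Cox6b2 was higher in A than B (log2 fold change 3.50, adjusted p = 0.0106 in edgeR) and than C (2.82, adjusted p = 0.0464 in edgeR). With layer A replicate 3 also left out, a fit added after seeing the data, neither passed, at 2.26 (adjusted p = 0.323 in edgeR) and 1.66 (adjusted p = 0.537 in edgeR).

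Cox4i2, the hypoxia-responsive isoform of subunit 4, had counts of 7, 7 and 17 in A, 3, 1 and 6 in B and 2, 1 and 17 in C. These were normalized CPM of 2.71, 2.37 and 2 in A, 0.34, 0.118 and 0.467 in B and 0.229, 0.29 and 0.667 in C, so that layer A exceeded layers B and C in every sample. Fitted without the filter its log2 fold change was 2.75 against layer B (adjusted p = 0.0687 in edgeR). With counts summed over transcripts of a gene it passed against both layers. Its second transcript had 98.4% of the count of the first, and whether the sum counts the same reads again was not tested. Ndufa4l2, the hypoxia-responsive paralog of Ndufa4, had counts of 2, 5 and 13 in A, 5, 0 and 4 in B and 3, 1 and 24 in C. These were normalized CPM of 0.775, 1.69 and 1.53 in A, 0.567, 0 and 0.311 in B and 0.343, 0.29 and 0.942 in C. Ndufa4l2 was thus higher in every layer A sample than in layer B, with layer A replicate 1 under the floor of 3 counts, and overlapped layer C. Its log2 fold change of layer A over B was 2.07 in the fit without the filter (adjusted p = 0.238 in edgeR). In brain both genes are known from pericytes, and all 7 pericyte and vascular smooth muscle markers had higher levels in A than B, with sums of 1037 to 1714 CPM against 82.9 to 212 in layer B. None of these 7 was at 0 throughout, and the part of pericytes in the Cox4i2 values was not tested.

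For subunit 7a, Cox7a2 had normalized CPM of 24, 41.6 and 66.4 in A, 33.7, 33 and 129.5 in B and 39.5, 31.8 and 82.3 in C, the muscle form Cox7a1 stayed between 0.339 and 1.17, and Cox7a2l, which takes part in supercomplexes, between 5.21 and 14.9. The counts of Cox7a1 were 1, 1 and 10 in A, 3, 7 and 11 in B and 5, 2 and 12 in C. Those of layer A replicates 1 and 2, layer B replicate 1 and layer C replicate 2 were at or below the floor of 3 counts. Cox7b had normalized CPM of 17.8, 13.9 and 26.4 in A, 14.4, 15 and 76.1 in B and 25, 24.6 and 29.8 in C, and Cox7b2 had counts of 2, 0 and 1 in A, 1, 2 and 23 in B and 5, 1 and 18 in C, highest in layer B replicate 3. Cox8a had normalized CPM of 94.9, 217 and 239.9 in A, 101, 131 and 233 in B and 158, 101 and 177 in C. The muscle form Cox8b had counts of 2, 0 and 5 in A, 0, 1 and 0 in B and 0, 0 and 0 in C, and the testis form Cox8c had 0 in every sample, which allows a level of up to 0.118 to 1.16 normalized CPM depending on the sample. Cox5b had counts of 0, 3 and 13 in A, 6, 11 and 24 in B and 9, 1 and 47 in C. It was at or below the floor of 3 counts in layer A replicates 1 and 2 and layer C replicate 2, and above it in the other samples.

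**Figure D5:**
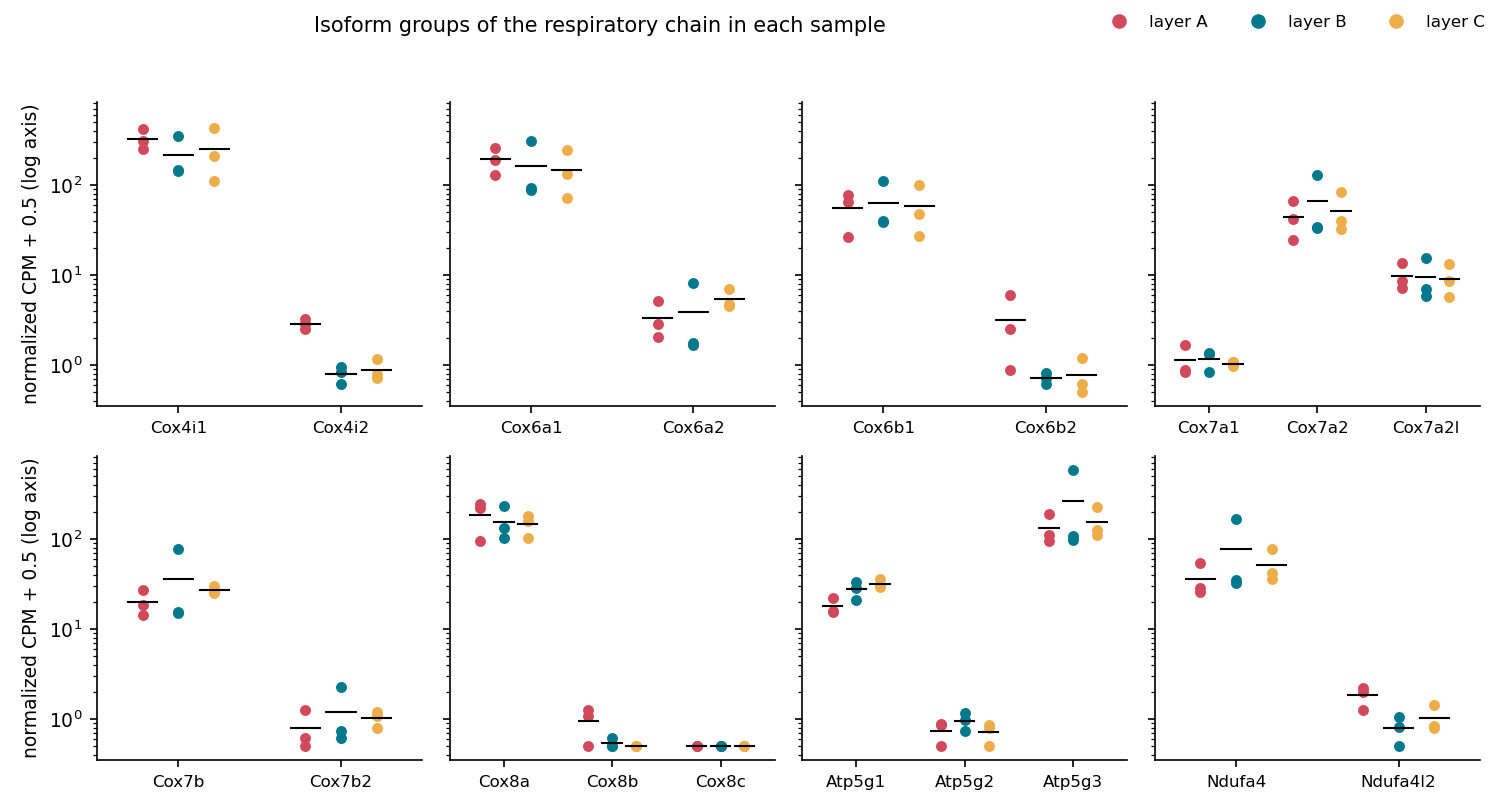
Normalized CPM plus 0.5 on a logarithmic axis for 8 isoform groups, with 1 point for each of the 3 replicates of layers A, B and C and a black line at their mean. Cox4i2, Cox6b2 and Ndufa4l2 have their layer A points above layer B. The lowest layer A points of Cox6b2 and Ndufa4l2 stand for 1 and 2 counts, under the floor of 3 counts. Cox8c sits at 0.5, which stands for 0 counts.

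In complex V, Atp5b (ENSMUST00000026459, chr10:128083273-128090391) had normalized CPM of 2011, 1512 and 913 in A, 1673, 1374 and 1425 in B and 2149, 1609 and 1709 in C, and replicate 3 of layer A was the lowest of the 9. Its log2 fold change of layer A over layer B was -0.01 (95% interval -0.64 to 0.62, adjusted p = 0.983 in edgeR), inside a 2-fold difference, and -0.04 without layer B replicate 3. Atp5a1, the alpha subunit that forms the catalytic head with Atp5b, had normalized CPM of 598, 441 and 564 in A, 508, 473 and 1362 in B and 655, 556 and 783 in C, with layer B replicate 3 above all others. Atp5f1, subunit b of the peripheral stalk, had normalized CPM of 23.3, 25.4 and 44.6 in A, 22.2, 19.6 and 151 in B and 27.8, 25.8 and 44.3 in C, and Atp5mpl, a small membrane subunit, had normalized CPM of 27.9, 34.2 and 63.1 in A, 28.6, 27.1 and 179 in B and 33.9, 29.5 and 77.2 in C. In both, layer B replicate 3 was the highest sample. Atp5d, the delta subunit of the central stalk, had normalized CPM of 55.4, 99.9 and 154 in A, 155, 176 and 169 in B and 141, 64.3 and 209 in C, and every layer A sample was below every layer B sample (log2 fold change -0.68, 95% interval -1.54 to 0.17, adjusted p = 0.247 in edgeR, layer A against B, and -0.67 without layer B replicate 3).

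Atp5g1, Atp5g2 and Atp5g3 encode the same mature c subunit of the rotor ring with different import sequences. Per kb, Atp5g3 stood at 255 CPM, Atp5g1 at 5.37 and Atp5g2 at 0.697. Atp5g3 had normalized CPM of 110.1, 93.1 and 190.3 in A, 96.8, 106 and 582 in B and 125, 109 and 227 in C, with replicate 3 highest in each layer (log2 fold change -0.99, 95% interval -2.18 to 0.19, adjusted p = 0.224 in edgeR, layer A against B, and 0.39 without layer B replicate 3). Atp5g1 had normalized CPM of 15.5, 21.7 and 14.8 in A, 28.2, 20.5 and 32.7 in B and 30.1, 35.3 and 28.9 in C. All layer A samples of Atp5g1 were below all layer C samples, and replicate 3 was the lowest in layers A and C (log2 fold change -0.86, 95% interval -1.58 to -0.14, adjusted p = 0.0917 in edgeR, layer A against C). Against layer B its log2 fold change was -0.65 (adjusted p = 0.181 in edgeR), and -0.49 without layer B replicate 3. Its within-layer standard deviation of 0.272 on the log2 scale was less than that of Atp5g3, 0.953. Atp5g2 had counts of 1, 0 and 3 in A, 6, 4 and 3 in B and 0, 1 and 9 in C.

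The samples of layers A and B did not overlap in 2 of 78 tested members, Ndufab1 (higher in A) and Atp5d (lower), against 38.5% of all tested genes. For layers A and C they did not overlap in 4, Ndufab1, Ndufb9 and Sdhc (higher in A) and Atp5g1 (lower), against 35.6% of all genes, and for layers B and C in 0, against 10.8%. None of these members passed the adjusted threshold in edgeR.

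The 13 messenger RNAs of the mitochondrial chromosome encode the remaining subunits, and 8 of them could be tested in a fit that kept that chromosome. The other 5, mt-Co2, mt-Co3, mt-Atp6, mt-Atp8 and mt-Nd4l, were listed at 0 in all 9 samples. Against layer B, 3 of 8 were higher in layer A, beside 24.3% of all genes called in that fit. The 8 had a median log2 fold change of 2.02 and a range of 1.50 to 2.96. Against layer C, 1 of 8 was higher, beside 18.3% of all genes, at a median of 1.15. Between layers B and C 0 of 8 passed, beside 0.0263% of all genes, at a median of -0.85. Summed over these 8 and set against the nuclear library, they reached 226711, 103151 and 52777 CPM in A, 9902, 13736 and 65499 in B and 32481, 119939 and 21368 in C. Layer B replicate 3 was the highest of layer B for both these and the nuclear members. In layers A and C replicate 3 was the lowest for the mitochondrial messenger RNAs and the highest for the sum of nuclear members, at 6461 and 7899.8 CPM. The difference between the gene groups itself was not tested.

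Other mitochondrial genes were described from lists, beside the 23.9% of all genes called between layers A and B. Among 46 assembly factors 1 was higher and 1 lower in layer A, with a median log2 fold change of -0.39. The higher one was Coa5 (0.89), needed for complex IV assembly, and the lower one Ttc19 (-0.84), needed for complex III. Among 16 genes of the tricarboxylic acid cycle and pyruvate dehydrogenase, the succinyl-CoA ligase subunit Suclg2 was higher (2.57) and Idh3a (-0.88) and Mdh2 (-1.02), both dehydrogenases of the cycle, were lower, at a median of -0.20. Among 18 tested carriers and membrane proteins, the fusion protein gene Mfn1 was higher (1.34) and the glutamate carrier Slc25a22 (-1.46) and mitochondrial creatine kinase Ckmt1 (-1.26) were lower, at a median of -0.48. All these values include layer B replicate 3. Its median log2 difference from replicates 1 and 2 was 0.48 for assembly factors, 0.54 for the cycle list and 0.53 for carriers. For the regulators described next it was -0.07.

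Among 14 regulators of these genes, Gabpa, the ETS factor also called nuclear respiratory factor 2 alpha, was higher in layer A (1.33 against layer B, adjusted p = 0.00714, and 1.34 against layer C, adjusted p = 0.0096, in edgeR), and Tfb1m, a mitochondrial ribosomal RNA methyltransferase, was lower than in layer B (-1.67). Esrrg, an orphan receptor that acts on mitochondrial genes, was lower in A than C (-1.62, adjusted p = 0.00691). Nrf1 and Ppargc1a did not pass, at 0.58 and 0.47 against layer B. Of 75 tested mitochondrial ribosomal proteins 0 were higher and 3 lower than in layer B, Mrpl3, Mrpl53 and Mrps2, at a median of -0.43. Against layer C, 0 were higher and 1 lower among assembly factors, 1 and 1 in the cycle, 1 and 2 among carriers, 1 and 1 among regulators and 0 and 1 among ribosomal proteins. Between layers B and C none of these lists had a call. Over all genes 18.4% were called between layers A and C and 0.0264% between layers B and C.

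The labelled tissue was checked against cell type markers, which did differ between layers A and B, where 23.9% of all genes were called. Of 8 neuron markers, 0 were higher and 6 lower in A than B, with summed levels of 6369 to 8663 CPM in A, 13156 to 23664 in B and 13799 to 18455 in C. All 12 astrocyte markers were higher, at 24126 to 49287, 3719.9 to 4600.2 and 5924 to 8072 CPM. Of 7 markers each, all 7 were higher for endothelial, pericyte and meningeal cells, as were 5 of 6 for microglia, 2 of 8 for oligodendrocytes and the 2 tested of 4 for red blood cells, where the other 2 were at 0 in all samples. Excitatory neuron markers had 1 higher and 4 lower of 7, and interneuron markers 1 and 1 of 8. The median log2 fold change of the 7 excitatory neuron markers was -1.08 for A over B and -1.23 for A over C. Their summed levels, which weigh each marker by its level, did not follow most of them. The sums were higher in A, at 10987 to 19363 CPM, than in B (4328 to 6408) and C (5251 to 7805). Sums of interneuron markers were 917 to 1602 CPM in A, 287 to 1121 in B and 846 to 1427 in C. In layer B replicate 3 the median log2 difference from replicates 1 and 2 was 1.96 for interneuron and 1.62 for oligodendrocyte markers, 0.14 for neuron and -0.27 for excitatory neuron markers, beside 1.51 for the respiratory chain and 1.08 for mitochondrial ribosomal proteins. It was 1.27 for the tested red blood cell markers, 1.21 for meningeal, 1.09 for pericyte, 0.88 for astrocyte, 0.75 for endothelial and 0.55 for microglia markers. In layer C replicate 3 the same difference was 2.11 for oligodendrocyte and 0.49 for interneuron markers. The part of cell type makeup in the respiratory chain values was not tested.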

How the data were processed

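RNA of mouse piriform cortex came from 9 samples, 3 for each layer. The authors amplified the RNA, sequenced strand non-specific libraries and deposited raw read counts per Ensembl transcript, without normalization, so that reads are not independent molecules. The submitters' processing notes name bcl2fastq 1.8.4, Bowtie, HTSeq 0.5.3 and mm10. How multi-mapping reads were counted is not given in the sources used here. Transcripts were joined to GENCODE M21 (GRCm38, the same assembly), which held 82807 of 95533 identifiers (86.7%).

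Per gene the transcript with the highest mean count was kept, and the mitochondrial chromosome was left out. Genes reaching 10 counts in 3 or more samples were scaled by TMM and fitted in edgeR 4.0.16 (R 4.3.3), with all 9 samples in 1 quasi-likelihood fit and Benjamini-Hochberg adjustment over all genes tested. Standard errors were derived from the F statistic and its fold change. DESeq2 1.42.0, other scalings, filters, transcript choices, trends with length and GC content, a replicate block and samples left out in turn were alternatives. Methods were tested on simulated data. Near-identical copies were found with BLAST+ 2.17.0. Members and lists were chosen with earlier results of these data known. Named genes were, per complex, the highest member per kb, core subunits, isoform groups, called members and the 3 with the smallest p-values between layers B and C, and others are marked in the text. The values of 1 member are not reported here, and it stays in the counts and medians.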

Additional observations from a re-analysis of the deposited data

How the results depend on the processing

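Counts of members called, 0 between every pair of layers, moved under these settings. DESeq2's Wald test called 1 between layers A and C (Atp5g1, lower in A), against 22.9% of all genes in that fit. Without a filter on low counts 7 were called between layers A and B (Cox5a, Atp5g3, Atp5mpl, Ndufa4, Ndufs7 and Atp5f1 lower in A, Cox6b2 higher) and 1 between A and C (Cox6b2), against 18.7% and 14.3% of all genes. With layer A replicate 3 also left out, added after seeing the data, the counts without a filter were 17 and 2 of 86, all lower in A, against 19.1% and 14.3% of all genes, and Cox6b2 was not among them. Counts summed by gene gave 1 (Cox4i2) and 2 (Cox4i2 and Ndufab1), higher in A, against 22.2% and 16.8%. Whether such sums count the same reads more than once was not tested. Removal of length and GC trends gave 0 and 1 (Atp5g1), against 28% and 22.2%. At an unadjusted p under 0.05 the counts were 0, 2 and 0. The labels do not say what the replicate numbers mark. Deviations of same-numbered samples correlated above 0.1 in 6 of 9 pairs, from -0.12 to 0.22, and 5 of 9 samples correlated best with their own number, so that a pairing was neither shown by all pairs nor assumed. With the number as a replicate block, 2 were called between layers A and B (Cox5a and Ndufs7, lower in A, against 24.7% of all genes). In that fit 0 were called between A and C, against 19.3% of all genes, and 0 between B and C, against 0.0396%. Leaving out 1 sample at a time gave 0 to 2 calls between A and B (Ndufs7 without layer A replicate 3, Ndufb9 and Cox6c without layer B replicate 3, against 16.9% to 25.2% of all genes) and 0 for the other pairs. Over all genes those fits called 9.36% to 23.9% between A and C and 0% to 0.228% between B and C. Without replicate 3 of all layers, a setting added after seeing the data, there were 4 and 1 (Atp5j), against 30.5% and 25.5%.

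Median log2 fold changes of the members ranged, with 1 sample left out, from -0.62 to 0.43 for A over B, from -0.36 to 0.29 for A over C and from -0.48 to 0.67 for B over C. Cox6c turned from -0.42 to 1.21 for A over B without layer B replicate 3, and its lowest value was -0.84, without layer B replicate 2. A change of sign in a value that passed in neither fit was not counted as a reversal. The 3 other scalings left the counts at 0 and the A over B median between -0.36 and -0.28. Under them 22.1% to 24.1% of all genes passed between A and B, 16.8% to 18.5% between A and C and 0.0264% between B and C. The filter at 10 counts in all 9 samples, fits of all transcripts, protein-coding transcripts, the mitochondrial chromosome kept and the 6 samples compared also gave 0. In these fits 16.7% to 25.8% of all genes passed between A and B and 11.3% to 20.8% between A and C. Between B and C the share was 0% to 0.0265%, and it was 0% with all transcripts and with the 6 samples compared. Calls over all genes between layers B and C rose from 4 to 90 with DESeq2 and 99 without a filter. Causes were not tested. At this depth 9 members stayed under the count minimum.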
